A study of Gallus gallus with 6 samples.

Results

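A single spotted cDNA array compared RNA from chicken macrophages 8 h after exposure to whole E. coli of the laboratory strain XL10 with RNA from the same kind of macrophages 8 h after exposure to lipopolysaccharide (LPS) of S. typh. The cells of both samples were macrophages obtained from peripheral blood, and in both the stimulus had been taken off after 2 h. As far as the labels tell, the samples differ in the stimulus and in the channel of the array. No array repeats the pair with the channels exchanged, so an effect of the channel on a gene cannot be told apart from the stimulus. All genes with a name on the array were members: 2220 of the 2253 named genes had a value on the 8 h array, against 2248 on the array that compared E. coli 4 h with LPS 4 h. The series held 6 arrays without any repeat, among them an array of E. coli 1 h and unstimulated cells, an array of unstimulated cells and LPS 1 h, and an array of LPS 2 h alone. No unstimulated sample was hybridised at 8 h, so a ratio here sets one stimulus against the other and does not say whether a gene moved away from rest.

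LPS is the glycolipid of the outer membrane of Gram-negative bacteria and is sensed through toll-like receptor 4 with its cofactor LY96. A whole bacterium carries LPS too, and adds lipoproteins, flagellin, cell wall fragments and nucleic acids, and it is also a particle that a macrophage engulfs and degrades in its lysosomes. Both stimuli set off NF-kB and the transcription of cytokines and chemokines, and feedback inhibitors shut part of that program down again in the hours that follow. The functions given for genes in the text are background, known mainly from mammals.

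Each value below is a log2 ratio of E. coli 8 h and LPS 8 h, with the sign as deposited and the array's median set to 0. A positive value likely means more RNA in the E. coli sample. The labels give E. coli 8 h as channel 1, and on the 1 h arrays the chemokine CCL20 was at 6.0 where the stimulated RNA was channel 1 and at -6.46 where it was channel 2, and IL1B was at 3.38 and -5.10. The order of samples in the titles gives no such basis, since for E. coli 1 h it runs against the channel order. Neither the dyes nor the numerator nor the base of the logarithm, taken as 2, is given by the labels. Each ± gives the SD among spots of a gene on this one slide, which is technical spread. A single array has no replicate and allows no test, so its precision as a measure of the stimuli is limited by that number. A ratio of at least 1 in size is called past 2-fold. DPY30 and NDUFA5, both at 1.00, lay just inside this limit, and LBR at 0.998 and CLCN5 at -0.999 lay just outside it.

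The spots themselves set limits. Each clone was printed 3 times, and these triplicates had a median SD of 0.45. The ratio drifted along the spot identifier, with medians of -0.35, -0.02 and 0.39 in the 3 successive sets of spots, and of -0.51 in the first and 0.59 in the last of 24 segments of 640 spots. The 3 spots of a clone lie one in each set, so a mean over all 3 averages over the sets. Removing the drift lowered the median SD to 0.32, and 160 of the 164 named genes past 2-fold were then still past it with the same sign. The ratio also leaned on brightness as read on the LPS 2 h array, with medians of 0.74 in the dimmest 10% of spots and -0.42 in the brightest 10%. On the array of E. coli 4 h and LPS 4 h these medians were 1.22 and -0.72. Of the 1408 spots without a value at 8 h, 426 were in the dimmest 10% and 54 in the brightest. The part of either trend in the counts below was not tested beyond the alternatives given.

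**Figure D1:**
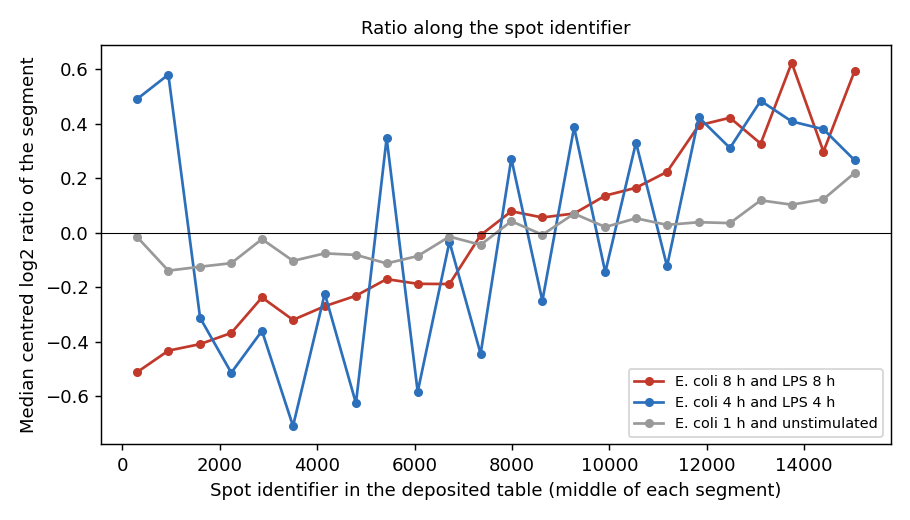
Median centred log2 ratio (vertical axis) in 24 successive segments of 640 spot identifiers (horizontal axis), for the 8 h array, the 4 h array and the E. coli 1 h array. On the 8 h array the segment medians climb from -0.51 to 0.59, while on the 4 h array they jump between neighbouring segments.

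At 8 h, 620 of the 2220 genes (27.9%) were past 2-fold, 333 positive (15%) and 287 negative (12.9%). With the brightness trend removed the split was 249 positive and 320 negative, so which direction held more genes depended on that choice. Past 4-fold there were 82 positive and 64 negative genes, and past 8-fold 28 and 22. Asking for at least 3 spots, every one of the same sign, left 358 of 1894 genes (18.9%), with 195 positive (10.3%) and 163 negative (8.61%). Positive genes were often dim, 55.6% of them in the dimmest 25% of all named genes, whereas 17.1% of the negative genes were there. Single spots could carry a mean: 15 spots exceeded 8 in size, among them 1 of the 3 spots of GIMAP1-GIMAP5.

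Genes that define the macrophage were negative as a group. Of the 10 macrophage markers read, 8 were negative past 2-fold and none was positive, with a median of -1.65, against a median of 0.01 over all 2220 genes and 12.9% of them negative past 2-fold. These markers were bright after LPS 2 h, with a median brightness percentile of 89.4. With the brightness trend removed their median was -1.36 and 6 of the 10 were negative past 2-fold, against 320 of all genes. CYBB, the catalytic subunit of the phagocyte NADPH oxidase, had spots of -2.84, -5.05 and -2.16 on one clone and of -1.31, -0.99 and -1.19 on another. TREM2, a lipid-sensing receptor of macrophages, read -0.78, -1.41 and -1.59 on one clone and -3.09, -2.72 and -2.01 on another. Every spot of both genes was below 0, and in each gene one clone read lower than the other.

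The complement chain C1QC, part of the C1q molecule that tags debris for uptake, read -2.16, -2.82 and -0.92. C1QA averaged -1.63 ± 1.64 over 8 spots, of which 1 was above 0, and C1QB averaged -0.71 ± 0.56 over 3 spots, so all 3 chains of C1q were below 0 and 2 of them past 2-fold. CSF1R, the receptor for the growth factor that keeps macrophages alive, averaged -1.18 ± 1.10 over 6 spots. Its clones were apart, at -2.15 on one and -0.20 on the other, which had a spot above 0. SPI1 (PU.1), the master transcription factor of the lineage, averaged -1.05 ± 0.46 over 9 spots with every spot below 0. LY86, which pairs with a relative of the toll-like receptors, read -2.67, -1.84 and -1.28. The protease CTSS, also a marker, averaged -1.66 ± 0.18 and is described with the lysosome. The scavenger receptor MARCO, the one marker above 0, was read on 1 spot, at 0.28. Fewer macrophages in a sample and less of these RNAs per macrophage cannot be told apart in bulk RNA.

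Markers of other blood cells did not form one block. Of 5 T cell markers, CD3D was negative at -4.01 ± 0.76, CTLA4 was positive at 1.85 ± 0.85, and CD28, GATA3 and ICOS lay between -0.49 and 0.28. CD3D encodes a chain of the T cell receptor complex, and its 3 spots read -4.80, -3.93 and -3.30, which is 16.1-fold. It was also at -2.70 on 2 spots at 4 h, and on the LPS 2 h array its brightness percentile was 98.0, against 61.9 for GATA3, 48.6 for CD28, 23.6 for ICOS and 13.5 for CTLA4. Of 2 B cell markers SYK was at -1.93 ± 1.57 and BTK at -0.16 ± 1.08. SYK also acts in myeloid cells. Among 3 markers of thrombocytes, the nucleated counterpart of platelets in birds, RGS18 was past 2-fold at -1.02 ± 0.58. The 3 erythroid markers lay within 2-fold. Among 4 heterophil markers MMP9 was positive and S100A12 negative (-2.26 and -2.10 on its 2 spots), and no natural killer cell marker was read. Ratio arrays give no level, so the share of any of these cells is not known, and their part in the macrophage marker result was not tested.

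**Figure D2:**
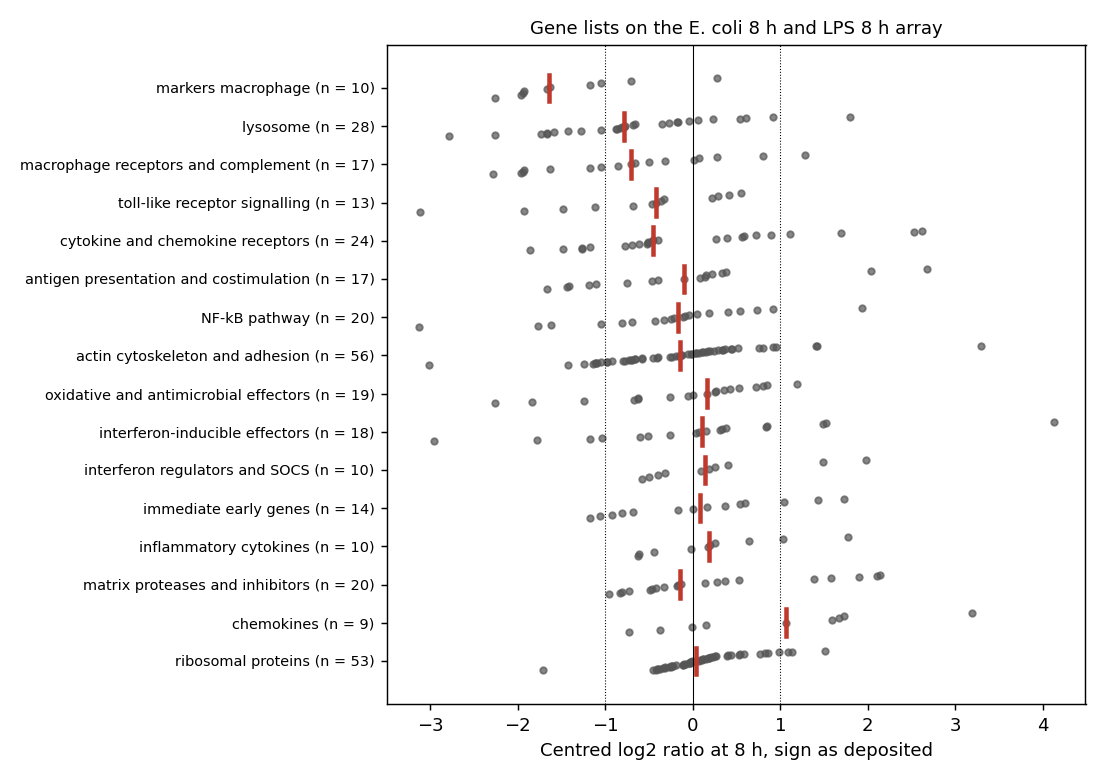
Centred log2 ratio at 8 h (horizontal axis) of every gene read in 16 gene lists (rows, with the number read), with the list median as a red bar and dotted lines at the 2-fold limits. Macrophage markers (median -1.65), lysosomal genes (-0.78) and macrophage receptors (-0.71) lie to the left, and chemokines (1.06) to the right.

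Genes of the lysosome, where engulfed material is broken down, were also negative more often than positive. Of 28 lysosomal genes, 9 were negative past 2-fold and 1 was positive, against 12.9% negative and 15% positive of all genes, with a median of -0.78. With the brightness trend removed the median was -0.50, and 7 were negative and 2 positive, against 320 and 249 of all genes. PSAP, the precursor of the saposins that help enzymes degrade glycolipids, was read on 4 clones and 12 spots, all between -2.95 and -1.94, with a mean of -2.25 ± 0.32. The aspartic protease CTSD read -1.95, -1.82 and -1.43, and the cysteine protease CTSS, which trims the invariant chain in antigen presentation, read -1.83, -1.69 and -1.47. All spots of both proteases lay past 2-fold. CTSC averaged -1.28 ± 0.40 over 9 spots and CTSB -1.04 ± 0.22 over 3 spots. LAPTM5, a lysosomal membrane protein of blood cells, averaged -1.59 ± 0.78. The arylsulfatase ARSB had the lowest mean, -2.78, and a wide SD of 1.45.

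Cathepsins did not all point one way. Of 10 read, 4 were negative past 2-fold and 1 was positive, against 12.9% and 15% of all genes. The exception was CTSV, a cysteine protease related to CTSL, whose 6 spots on 2 clones all lay between 1.41 and 2.07 (mean 1.80 ± 0.24), whereas at 4 h its mean was -0.51 ± 0.44. CTSK, the collagen-degrading cathepsin of osteoclasts, was within 2-fold at 0.92 ± 0.17. The vacuolar proton pump, which acidifies the lysosome, had members on both sides, with ATP6V0D2 at 1.61 on 2 spots and ATP6V1C2 at -2.46 ± 1.28, and the 10 other subunits and accessory proteins read ranged from -0.90 to 1.42. CHMP2B, a part of the ESCRT machinery that sorts receptors into lysosomes, had spots of -1.90, -1.74 and -1.58.

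Surface receptors of macrophages and complement gave 7 negative and 1 positive gene of 17, against 12.9% and 15% of all genes, with a median of -0.71, and 8 of the 17 are also macrophage markers. The positive one was P2RX7, the ATP-gated channel that triggers the inflammasome, at 1.31, 0.48 and 2.08. Taken once each, the 46 genes of the macrophage marker, receptor and lysosome lists held 17 negative and 2 positive genes, against 22 negative and 3 positive at 4 h, where 11.7% of 2248 genes were negative and 17.7% positive past 2-fold. Among genes chosen after their values were seen, the scavenger receptor COLEC12 averaged -1.91 ± 0.72 over 9 spots, all below 0. The lysophospholipid receptor GPR34 averaged -1.73 ± 0.57 and the metalloprotease ADAMDEC1 averaged -1.77 ± 0.94. All were taken from genes negative past 2-fold on each of their clones, so the choice fixed their direction. SPP1, of activated macrophages, and IRF8, of the myeloid lineage, were positive and are described below.

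Chemokines pointed the other way. Of 9 read, 5 were positive past 2-fold and none was negative, with a median of 1.06, where 15% of all genes were positive. CCL20, which draws lymphocytes and dendritic cells through CCR6, read 1.41, 1.74 and 2.04. CCL5 (RANTES), which attracts T cells and monocytes, read 1.32, 1.60 and 1.84, and XCL1, lymphotactin, read 2.15, 1.42 and 1.46. CCL4 read 0.78, 1.03 and 1.39. The spots of these 4 genes were all positive and close together. LOC395551 had only 2 spots, 0.80 and 5.59, and without the genes read on fewer than 3 spots the list's median was 0.61. IL8L1, the chicken counterpart of the neutrophil chemokine CXCL8, averaged -0.00 ± 0.29 over 6 spots, with spots on both sides of 0. Paralogues close to CCL4 may bind the same cDNA clone, which makes the CCL4 values uncertain.

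Cytokines showed less. Of 10 read, 2 were positive past 2-fold and none negative, a share of the positive ones near the 15% of all genes, and the median was 0.18. IL6, the acute phase cytokine, read 0.86 and 1.20 on its 2 spots. TGFB3 averaged 1.77 with a spot at -0.41, so its spots disagreed in sign. IL1B, the main inflammasome cytokine, averaged 0.65 ± 0.90 over 6 spots that ranged from -0.21 to 2.40. Among 24 receptors for cytokines and chemokines, 4 were positive and 5 negative, against 15% and 12.9% of all genes. TNFRSF6B, a soluble decoy for death ligands, read 2.28, 2.98 and 2.32, and IL6ST, the signalling chain shared by the IL6 family, read 3.05, 1.35 and 3.43. On the negative side were CSF2RA, a chain of the GM-CSF receptor, at -1.86 ± 0.44, and OSMR, the oncostatin M receptor, at -1.49 ± 0.40, with all spots below 0. CXCR1 (-1.27 ± 2.00) and CMKLR1 (1.70 ± 3.30) had spots on both sides of 0, IL17RA was read on 2 spots at -1.27, and CCR8 stood at 1.11 ± 1.26.

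Of 13 genes of toll-like receptor signalling, which sense bacteria upstream of these genes, 4 were negative past 2-fold and none was positive, against 12.9% negative and 15% positive of all genes. LY96, the LPS-binding cofactor of toll-like receptor 4, averaged -1.48 ± 1.20, and TLR15, a receptor of birds and reptiles, had 5 spots between -1.69 and -0.87. TLR1B was read on 2 spots, -3.25 and -2.98, and its brightness percentile after LPS 2 h was 0.36. Of 20 NF-kB pathway genes 1 was positive and 4 were negative, with a median of -0.16, so the negative count was not far from that of all genes. The positive one was TBK1, the kinase that switches on interferon regulatory factors, at 2.09, 1.82 and 1.90. The kinase MAP3K8 read -2.44, -1.34 and -1.05 and the adaptor TRAF3 -1.24, -1.09 and -0.82. CHUK, a subunit of the IkB kinase, averaged -1.76 with a spot at -0.02, and the inhibitor TNIP3 read -3.69 and -2.56. The inhibitors NFKBIA at 0.54 ± 0.17, NFKBIE at -0.81 ± 0.48 and TNFAIP3 at -0.25 ± 0.25 were within 2-fold. So was the co-activator NFKBIZ, at -0.43 ± 0.26.

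Among 14 immediate early genes, 3 were positive and 2 negative, against 15% and 12.9% of all genes. CEBPB, a transcription factor of inflammatory genes, read -0.95, -1.34 and -1.23, and the growth inhibitor BTG1 read -1.39, -1.08 and -0.72. BHLHE40 had 6 spots between 0.59 and 1.52. JUN averaged 1.43 because of 1 of its 3 clones (3.45, 5.29 and 2.78), while the spots of the other clones lay between -0.11 and 0.69, and DUSP6 because of a spot at 4.40. Of 10 interferon regulators and SOCS inhibitors 2 were positive and none negative, a positive share near the 15% of all genes, with a median of 0.14. The positive ones were SOCS3, the inhibitor of IL6-type signalling, at 1.43, 1.39 and 1.66, and IRF8, a transcription factor of the myeloid lineage, at 1.43, 1.68 and 2.82. IRF8 differed in direction from SPI1, the other myeloid transcription factor above.

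The 18 interferon-inducible effectors gave 3 positive and 4 negative genes, against 15% and 12.9% of all genes. GVINP1, of the very large interferon-inducible GTPases, read 1.70, 4.53 and 6.14, all positive but far apart, and the antiviral zinc finger protein ZC3HAV1 read 1.19, 1.32 and 2.06. CH25H, which makes 25-hydroxycholesterol, read -2.12, -1.66 and -1.55. IFI30, a thiol reductase of the lysosome, read -1.46, -1.14 and -0.93. SAMHD1 (1.49 ± 2.37), SAMD9L (-1.03 ± 1.14) and PARP9 (-2.95 on 2 spots far apart) were not settled by their spots, and the median of the spots of SAMHD1 was -0.04.

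Genes of antigen presentation and costimulation, 17 in all, held 5 negative and 2 positive members, against 12.9% and 15% of all genes. CD74, the invariant chain of class II molecules, read -1.75, -1.44 and -1.13, next to its protease CTSS above. CD83, a marker of mature dendritic cells and activated macrophages, averaged -1.41 ± 0.67 over 5 spots, all below 0. PDIA3 averaged -1.10 ± 0.88 and HAVCR1 -1.19 ± 1.32, each with spots on both sides of 0. The positive members DMA (-0.54, 0.22 and 6.43) and CD40LG (0.90, 6.19 and 0.96) each rested on 1 spot for their size. Of 6 dendritic cell markers CD83 and LY75 (-1.02 ± 1.33) were negative past 2-fold and none was positive.

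Enzymes of the leukotriene branch held one of the strongest ratios of the array. LTA4H, which turns leukotriene A4 into the neutrophil attractant leukotriene B4, was read on 3 clones. Its 9 spots were -4.48, -4.07, -4.00, -4.15, -4.08, -3.63, -3.22, -3.31 and -3.14, with a mean of -3.79 ± 0.48, or 13.8-fold. At 4 h it averaged -1.89 ± 1.54, with 1 of 9 spots above 0, and on both 1 h arrays it was near 0 (0.03 and 0.47). ALOX5AP, the activator of the lipoxygenase one step upstream, averaged -1.43 ± 1.81 over 5 spots, of which 1 was above 0. It was dim after LPS 2 h, at a brightness percentile of 1.64. The lipoxygenase itself, ALOX5, lay above 0 and within 2-fold. ANXA1, an anti-inflammatory annexin, had 6 spots between -2.14 and -0.73. Of the 9 genes of this pathway 3 were negative and 2 positive, against 12.9% and 15% of all genes. The positive ones were ANXA2 (1.37 ± 1.26) and the lysosomal phospholipase PLA2G15 (1.81 and 1.90).

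Matrix proteins and proteases included 5 positive genes and no negative one among 20, against 15% positive and 12.9% negative of all genes, although the list's median was -0.15 (0.04 with the brightness trend removed). SPP1 (osteopontin), a secreted phosphoprotein of activated macrophages, was read on 3 clones with 9 spots between 1.53 and 2.35, a mean of 1.90 ± 0.25. The gelatinase MMP9 read 3.13, 3.09 and 2.90 on one clone and 0.89, 1.23 and 1.37 on the other, positive on both but of unequal size. TIMP4 averaged 1.57 ± 0.98, MMP1 1.38 ± 0.90 and MMP27, on 2 spots, 2.14. LRRC15, a leucine-rich repeat membrane protein, had 6 spots between 1.56 and 2.35.

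Among redox and antimicrobial genes, 3 of 19 were negative and 1 was positive, against 12.9% and 15% of all genes, and the negative share was close to that of all genes. The peroxidase PRDX1 read -2.13, -1.78 and -1.59, and the glutathione transferase GSTA3 averaged -1.24 ± 0.32, with every spot below 0. GSTO2, another glutathione transferase, had 6 spots between -1.99 and -1.11. TXNRD1 (1.19 ± 2.83) rested on 1 spot at 4.46. NOS2, the inducible nitric oxide synthase, averaged 0.72 ± 1.32, with its 2 clones apart: -0.69, -0.38 and -0.34 on one, 1.67, 1.93 and 2.15 on the other. Among 6 iron genes, FTH1, the ferritin heavy chain, had 5 spots between -1.91 and -1.33, and TF, transferrin, had 5 of 6 spots between -3.45 and -2.22 and the other at 0.29.

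In metabolism, fatty acid and cholesterol handling had 2 positive and 2 negative genes of 18, against 15% and 12.9% of all genes. The positive ones were FABP4 and CPT2, and the negative ones CH25H, given above, and ACSL1. FABP4, a fatty acid carrier, read 1.62, 2.81 and 3.26. CPT2, which takes fatty acids into oxidation in mitochondria, read 2.49, 2.84 and 2.18. ACSL1, which activates fatty acids, had 11 of 12 spots between -3.90 and -0.80 and 1 at 3.87. In glycolysis 3 of 16 were positive and 2 negative, against 15% and 12.9% of all genes. Among the positive ones were PGAM1 (1.26 ± 0.30) and PFKP (1.09 ± 0.44, all 9 spots above 0). HK1 stood at 5.99 and 5.89 on 2 spots, against 0.77 and -4.57 at 4 h. The respiratory chain and citric acid cycle had 5 positive and 5 negative genes of 38, and the mitochondrial ribosome and import 6 and 6 of 30, against 15% and 12.9% of all genes. NDUFB4, of complex I, read -2.05, -1.66 and -1.49.

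Chaperones held 9 negative and 4 positive genes of 36, against 12.9% negative and 15% positive of all genes. Subunits of the chaperonin TRiC, which folds actin and tubulin, were far apart: CCT2 read -2.14, -3.38 and -3.56, TCP1 averaged -2.47 ± 1.20 with all 6 spots below 0, and CCT4, CCT7 and CCT8 lay between -0.27 and 0.08. HSP90B1, the HSP90 of the endoplasmic reticulum, averaged -1.68 ± 0.36, and HSPA2 averaged 1.51 ± 0.23. Of 38 genes of the proteasome and ubiquitin system 4 were negative and 3 positive, against 12.9% and 15% of all genes, with a median of 0.02. Among the 8 proteasome core subunits read, PSMB7 (-1.92 ± 1.04), PSMA7 (-1.30 ± 0.60) and PSMB2 (-1.23 ± 0.44) were negative and none was positive past 2-fold. Ribosomal proteins stayed near the array's centre, with a median of 0.04 over 53 genes, 1 negative (RPS16 at -1.82, -1.93 and -1.39) and 3 positive genes whose spots disagreed.

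Of 56 genes of the actin skeleton and adhesion, 8 were negative and 3 positive at 8 h, against 12.9% and 15% of all genes. The negative share was close to that of all genes and the positive share below it. At 4 h 14 were negative and 2 positive, where 11.7% of all genes were negative and 17.7% positive. These genes were bright after LPS 2 h, with a median brightness percentile of 85.2. Their median at 8 h was -0.14, and 0.07 with the brightness trend removed. The part of brightness in the 4 h counts was not tested. EVL, which promotes the growth of actin filaments, read -3.09, -3.36 and -2.59. ARPC5, a subunit of the Arp2/3 complex that branches filaments, had 6 spots between -1.97 and -0.66. Of the 8 Arp2/3 subunits read, ARPC5 and ACTR3 (-1.05 ± 0.44) were past 2-fold, and ARPC3 was the one above 0, at 0.92 ± 1.90. LCP1, plastin of leukocytes, averaged -1.24 ± 0.32, and DSTN, which severs filaments, -1.11 ± 0.30. SELE was positive at 1.41 ± 0.26 and ALCAM at 1.41 ± 0.86, with all spots above 0. Among 19 genes of cell death CASP1, the protease that matures IL1B, was at 0.81, 1.18 and 1.66, and CASP8 at -1.41, -0.95 and -0.70. CASP1 was dim after LPS 2 h, at a brightness percentile of 1.07. With the brightness trend removed its mean was 0.38, within 2-fold, and at 4 h it was at -3.61 on 2 spots.

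The largest ratios among genes with at least 3 spots of 1 sign were partly carried by single spots. GIMAP1-GIMAP5, of the immune GTPases of the GIMAP kind, averaged 10.90 from spots of 0.15, 4.74 and 27.82, and NACC2 averaged 3.57 from 0.20, 9.86 and 0.65. On the negative side RBM23 averaged -3.85 from -1.20, -9.88 and -0.46, and SNX9, a sorting nexin of endocytosis, -4.14 from -1.80, -3.42 and -7.20. Those with close spots were ARAP3 (2.44, 3.81 and 3.41), TBL2 (3.25, 1.98 and 2.58), NIPSNAP1 (1.78, 3.34 and 2.71), CD3D, LTA4H, EVL, CCT2 and RASGEF1A. RASGEF1A, an exchange factor for Ras-type GTPases, had 6 spots between -4.08 and -1.93 over 2 clones, against a mean of 1.37 ± 0.99 at 4 h.

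**Figure D3:**
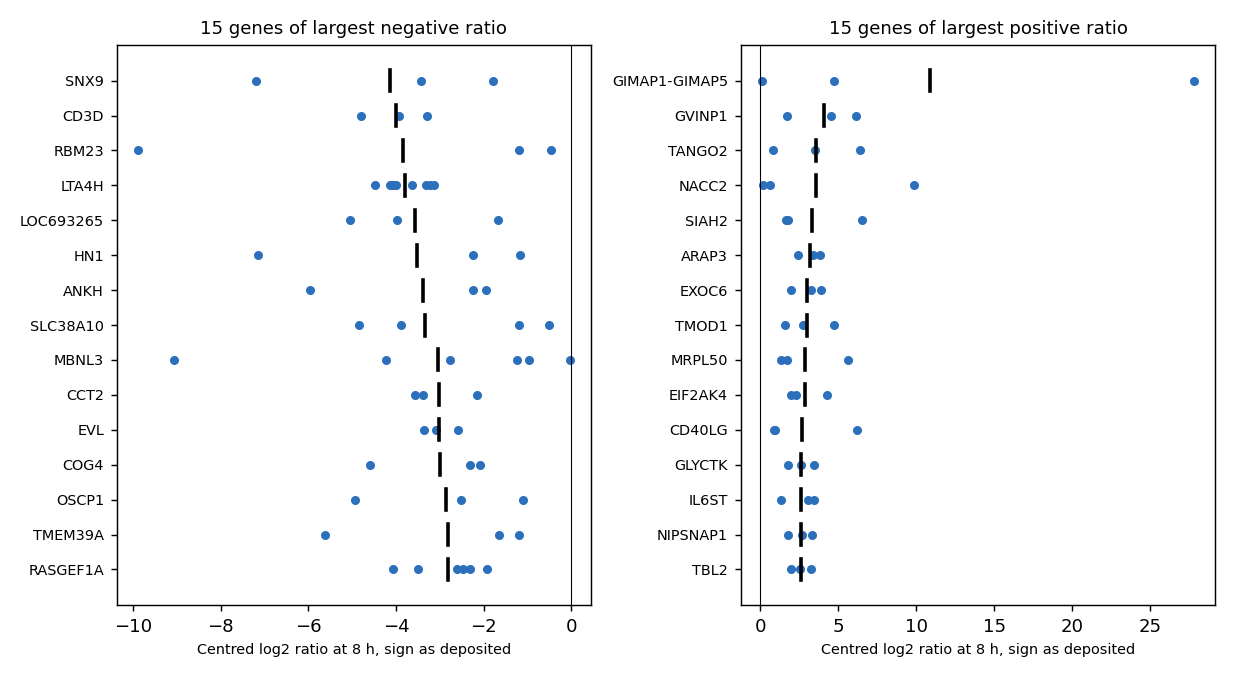
Every spot (points) and the gene mean (bars) of the 15 genes with the largest negative and the 15 with the largest positive ratio at 8 h, as centred log2 ratios (horizontal axes, of different scale in the 2 panels). LTA4H, CD3D and EVL have spots close together, while GIMAP1-GIMAP5, NACC2 and RBM23 owe their place to 1 spot.

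Many genes were read on several clones. There were 531 genes with at least 2 clones of at least 2 spots each, and 99 of them were past 2-fold. Of the 99, 36 were past 2-fold on every clone, a description only, since the mean of the same clones chose them. Of these 25 were negative, among them LTA4H, CYBB, PSAP, TREM2, TF, FTH1, ANXA1, LCP1, COLEC12, GPR34 and ADAMDEC1, and 11 positive, among them SPP1, MMP9, CTSV, LRRC15, HSPA2, EMP1 (1.48 ± 0.32) and CLDN5 (1.45 ± 0.56). Across genes the correlation of the first clone with the second was 0.38.

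The 4 h array made the same comparison 4 h earlier and shares no RNA with the 8 h array. Its sign is also as deposited. Setting the signs of the arrays side by side takes the same stimulus as numerator on both, which the labels do not give. There 661 of 2248 genes (29.4%) were past 2-fold, 397 positive (17.7%) and 264 negative (11.7%), and with at least 3 spots all of 1 sign 457 of 2079 (22.0%), 277 positive (13.3%) and 180 negative (8.66%). Of 2216 genes read on both, 617 were past 2-fold at 8 h and 644 at 4 h. A set of 294 was past on both: 262 with equal sign, which is 42.5% of the 8 h genes and 40.7% of the 4 h genes, and 32 with opposite sign. With the brightness trend removed from both arrays 167 genes had equal sign. Pearson's r across genes was 0.40 and Spearman's rho 0.44, as a description of arrays that share clones, print order and a brightness trend. The part of the array channel in this likeness was not tested. The array of E. coli 1 h gave an r of 0.26 and that of LPS 1 h an r of 0.06, while r was -0.01 for the array on which both samples, at 2 h and 4 h, had received E. coli. LPS was channel 2 on the LPS 1 h array, so genes raised by LPS are likely negative there, unlike on the E. coli 1 h array. With the brightness trend removed the 3 values of r were 0.18, -0.05 and -0.11.

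Genes that stood apart at both times included lysosomal and matrix genes. PSAP was at -2.25 at 8 h and -2.36 at 4 h, CTSD at -1.73 and -2.13, CTSS at -1.66 and -2.35, SPP1 at 1.90 and 1.97, and CCL5 at 1.59 and 1.52. By the smaller of both ratios the leading genes were TMOD1, a capping protein of actin filaments (3.03 at 8 h and 4.41 at 4 h), TBL2 (2.60 and 3.68), FABP4 (2.56 and 2.55), CCDC53 (2.52 and 2.86), ERGIC2 (2.22 and 2.21), PSMD13 (-2.21 and -2.67), SECISBP2L (2.14 and 2.78) and LOC422654 (-2.10 and -2.30).

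**Figure D4:**
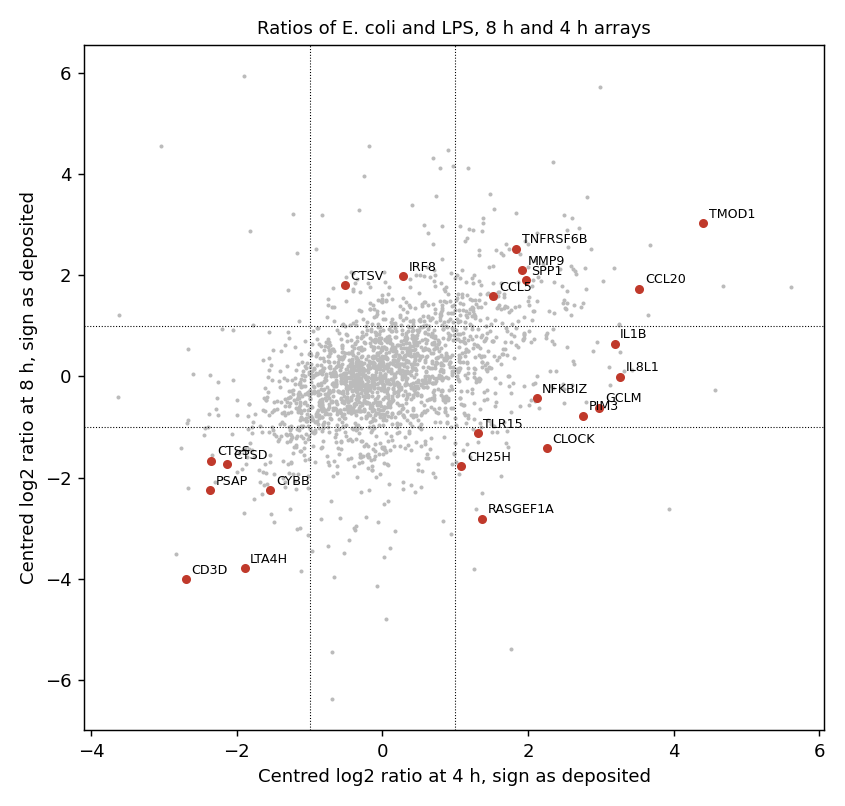
Centred log2 ratio at 8 h (vertical axis) against that at 4 h (horizontal axis) for genes read on both arrays (grey), with named genes in red and dotted lines at the 2-fold limits. GIMAP1-GIMAP5, at 10.90 at 8 h, lies outside the plot. LTA4H, PSAP and CD3D are negative at both times, and IL8L1, GCLM, PIM3 and NFKBIZ are past 2-fold at 4 h alone.

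Genes induced at 1 h had mostly lower ratios at 8 h than at 4 h. Genes induced at 1 h were taken as those whose ratio was at least 1 on the E. coli 1 h array and at most -1 on the LPS 1 h array, where LPS was channel 2. Both of these arrays used unstimulated RNA. Of the 63 such genes 60 were read on the 8 h and 4 h arrays. At 8 h 13 of them (21.7%) were positive past 2-fold, 6 negative and 41 within 2-fold, with a median of 0.15. At 4 h 42 (70.0%) were positive, 2 negative and 16 within, with a median of 1.48. Of all genes 15% were positive and 12.9% negative past 2-fold at 8 h, and 17.7% and 11.7% at 4 h. The ratio at 8 h was below that at 4 h in 47 of the 60 (78.3%), against 47.7% of all genes read on both. With the brightness trend removed the medians were 0.30 at 8 h and 1.57 at 4 h. The arrays were single, so the difference between the times was not tested.

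Among the 42 of these genes positive past 2-fold at 4 h, 27 were within 2-fold at 8 h, 12 positive and 3 negative. Of all 384 genes positive at 4 h and read on both arrays, 161 were positive and 23 negative at 8 h, the rest within 2-fold. IL8L1 was at -0.00 ± 0.29 at 8 h and 3.27 ± 1.00 at 4 h (6 spots each), and its highest spot at 8 h, 0.43, was below its lowest at 4 h, 2.07. GCLM, the regulatory subunit of the enzyme that makes glutathione's precursor, was at -0.62 ± 0.22 at 8 h and 2.98 ± 0.39 at 4 h. NFKBIZ, a co-activator of secondary response genes, was at -0.43 ± 0.26 and 2.12 ± 0.40, the lactate carrier SLC16A1 at 0.57 ± 0.26 and 2.54 ± 0.45, and the transcription factor KLF2 at 0.00 ± 0.36 and 1.72 ± 0.18. In each of these 5 genes no spot at 8 h reached the lowest spot at 4 h. GCLM was named for its large difference between the times, and the others were chosen after their values were seen. How many of all genes have such a gap was not counted, and the spots of each time are repeats on 1 slide. IL1B overlapped, at 0.65 ± 0.90 at 8 h and 3.19 ± 1.34 at 4 h. The survival kinase PIM3, outside the set, was at -0.78 ± 0.41 and 2.76 ± 0.67.

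A smaller number, 12 of the 60, was positive past 2-fold at both times, against 161 of the 2216 genes read on both arrays. G0S2, an inhibitor of fat breakdown, was at 2.02 ± 0.21 at 8 h and 2.66 ± 0.49 at 4 h, PLK3, a stress kinase, at 2.42 ± 0.67 and 1.90 ± 0.36, MMP9 at 2.10 ± 1.04 and 1.92 ± 0.49, LRRC15 at 2.00 ± 0.27 and 1.03 ± 0.46, and RSPRY1 at 1.73 ± 0.26 and 2.79 ± 0.21. CCL20 was at 1.73 ± 0.31 and 3.53 ± 1.26. Of the 9 chemokines, then, 5 were positive at 8 h and 6 at 4 h, and IL8L1 was the one with the widest gap between the times.

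**Figure D5:**
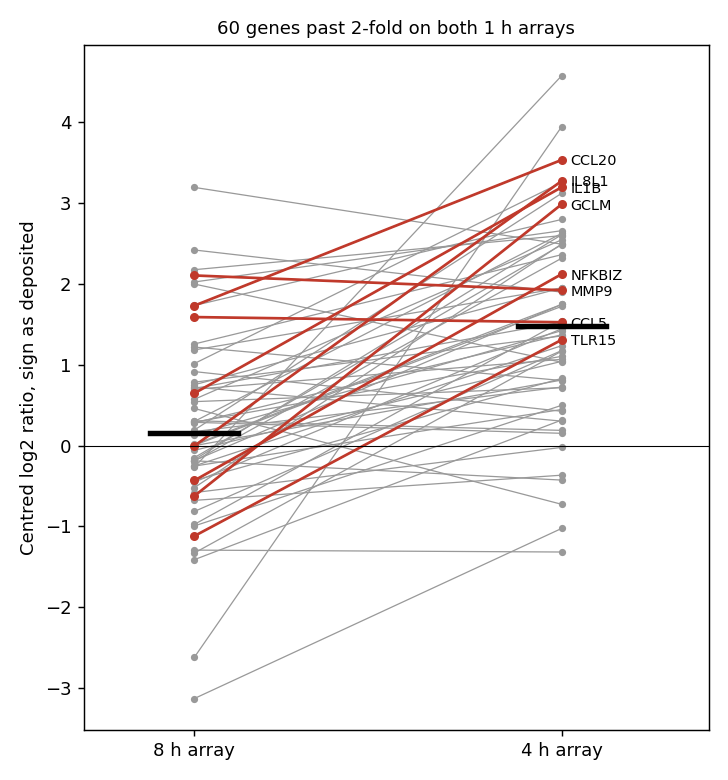
Centred log2 ratio on the 8 h array (left) and the 4 h array (right) for the 60 genes induced on both 1 h arrays, 1 line per gene, with medians as black bars (0.15 and 1.48) and some genes in red. CCL5 and MMP9 stay level, while IL8L1, IL1B, GCLM, NFKBIZ and TLR15 are lower at 8 h.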

How the data were processed

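Macrophages from chicken peripheral blood were profiled on 2-colour spotted cDNA arrays with 14718 spots. The authors deposited 5 arrays as ratios of a pair of samples, read here as log2. Their dyes, numerator, base, background correction and normalization were not given in the sources used here. For the LPS 2 h array the deposited values are a linear intensity, which served as brightness. Each ratio array has 1 sample pair and the LPS 2 h array has 1 sample. Groups came from the labels, and no column of another sample was present (0).

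Log2 ratios were centred on the array median (0.12 at 8 h before centring). Spots were averaged per clone (4906 clones of 3 spots), then per gene, through a probe table with an annotation of 2007 that gave 1 gene to 9066 spots, several to 3 and none to 5649. Current symbols came from RefSeq (GRCg7b), which held 2228 of the 2255 gene identifiers. Past 2-fold means a centred ratio of at least 1 in size. No test, p-value or set test was run. Steps were tested on simulated data. Lowess used a fraction of 0.3 for brightness and 0.1 for position.

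Named genes were the 15 largest positive and 15 largest negative with 3 or more spots of 1 sign, members past 2-fold of the immune lists, the 2 to 4 largest of other lists, and 8 each of largest difference from and largest agreement with 4 h; other genes (further list and family members, those past 2-fold on every clone, those induced at 1 h) were chosen after their values were seen. The members and the 41 gene lists were chosen with earlier results of these data known. Alternatives were no centring, other centring, trend removal, spot medians, spot and brightness filters, natural logarithms and scaling. The software was statsmodels 0.14.6 (lowess), pandas 2.3.3 and numpy 2.4.6 under Python 3.11.15, and figures were drawn with matplotlib 3.10.9.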

Additional observations from a re-analysis of the deposited data

Results flagged for a closer look

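Of 437 genes with every spot of 1 sign on each array, 143 were past 2-fold on both arrays with equal sign. Only 8 were past 2-fold in opposite directions at 8 h and 4 h, and the 5 of them that the naming rule covers are given here. CH25H, the enzyme that makes 25-hydroxycholesterol, was at -1.78 at 8 h and 1.09 at 4 h. TLR15, the receptor of birds and reptiles, was at -1.12 at 8 h and 1.31 at 4 h. CLOCK, a transcription factor of the circadian clock, was at -1.42 at 8 h and 2.26 at 4 h. FKBP3, a prolyl isomerase of the nucleus, was at -2.63 at 8 h and 1.28 at 4 h. EIF2AK4 (GCN2), the kinase that senses amino acid shortage, went the other way, at 2.87 at 8 h and -1.82 at 4 h. CH25H and TLR15 had spots close together on both arrays, with SDs of 0.30 and 0.20 for CH25H and 0.32 and 0.48 for TLR15, while FKBP3 had SDs of 2.00 and 1.98. EIF2AK4 had SDs of 1.26 and 1.63, and CLOCK of 0.33 and 0.94. Both were among the dimmest genes after LPS 2 h, with brightness percentiles of 2.53 for EIF2AK4 and 6.39 for CLOCK, so their ratios are uncertain. The percentiles of CH25H and TLR15 were 78.5 and 88.1. Each time was a single array, so the difference between the times was not tested.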

How the results depend on the processing

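No paired analysis was possible because each comparison had 1 array. Alternatives that removed the position trend, alone or with the brightness trend, were chosen after seeing the data. Of the lists, 16 had a median of the other sign under some alternative, and the main medians of these were all within 0.17 of 0. Of 164 named genes past 2-fold, between 139 and 160 stayed so with the same sign without centring, with other centring, with trend removal or with spot medians. The filters kept 137 (at least 3 spots) and 115 (without the dimmest 25% of genes) and left their ratios unchanged. Natural logarithms enlarge every ratio, and scaling left the 8 h ratios as they were. None of these last settings could bring a gene within 2-fold, so they do not speak to stability. Medians over spots in place of means turned 4 genes negative: RPL22 (-0.94), RPS3 (-0.0029), SAMHD1 (-0.035) and TXNRD1 (-0.27), each of which has 1 or 2 very high spots. Removing the brightness trend left 167 genes past 2-fold on both arrays with equal sign and an r of -0.051 with the LPS 1 h array, and removing both trends left 194 past on both, 168 with equal sign, and an r of -0.054. With at least 3 spots, 16 genes had opposite sign and the chemokine median was 0.61. Without the dimmest 25% of genes, 386 genes were past 2-fold, 148 positive (97 with all spots of 1 sign), 159 on both arrays, 144 of equal and 15 of opposite sign, r was -0.047 with LPS 1 h and -0.14 with E. coli 2 h and 4 h, and the chemokine median was 0.61; there are fewer genes in these counts by construction. If the deposited logarithm is natural, 958 genes were past 2-fold, 460 negative, 542 with all spots of 1 sign (257 negative), 540 on both arrays, 456 of equal and 84 of opposite sign, and the chemokine median was 1.54. With arrays scaled to 1 spread, 193 were past on both, 174 of equal and 19 of opposite sign. Where not stated, the cause was not tested. Dim spots limit what the array shows, since 426 of the missing spots lay in the dimmest 10%.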

Other observations

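Of 1884 clones without a gene name here, 1425 had 3 spots read, and 730 of these had all spots of 1 sign, 190 of them positive and 130 negative past 2-fold. By the same rule, counted per gene, 195 of 1894 named genes (10.3%) were positive and 163 (8.61%) negative. Among those with close spots, clone 2685 averaged 3.69 ± 0.17 and clone 1667 averaged 3.28 ± 0.47, while clone 1196 averaged -3.25 ± 0.34 and clone 1959 averaged -2.60 ± 0.38. The genes behind these clones are not named by the table used here. Clone numbers count the identifiers of the first set of spots.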
